A study of Mus musculus with 6 samples.

Results

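Colony-stimulating factors and their receptors set how many myeloid cells a tissue makes, keeps and replaces, and 9 genes of that system were followed here from the cells that make the ligands to the cells that carry the receptors: the ligands Csf1, Il34, Csf2 and Flt3l and the receptor genes Csf1r, Csf2ra, Csf2rb, Csf3r and Flt3. The members were taken as the rows with these symbols in the 6 count tables, and all 9 were found among 19349 gene symbols. The data were single-cell RNA counts (10x Genomics Chromium) of non-parenchymal liver cells, the cells of the liver other than hepatocytes, from mice with nonalcoholic steatohepatitis (NASH). All mice were male C57BL/6J animals, 8 weeks old at the start and fed a high-fat diet for 24 weeks. For the last 8 weeks they received by gavage either vehicle (DMSO) or ginkgetin, a plant biflavone, at 10 mg/kg/day, and 3 libraries were made per group. No chow-fed mice were among these libraries. The methods give 3 per group without saying whether each library is 1 mouse, and the p-values measure only the spread between these libraries.

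Csf1 (macrophage colony-stimulating factor) and Il34 bind the same receptor tyrosine kinase, Csf1r, on which Kupffer cells (the resident macrophages of the liver) and other tissue macrophages depend. Csf2 (granulocyte-macrophage colony-stimulating factor) signals through a specific alpha chain, Csf2ra, paired with the common beta chain Csf2rb, which the receptors for interleukin-3 and interleukin-5 also use. Csf3r is the receptor for granulocyte colony-stimulating factor, the main growth factor of neutrophils. Flt3l drives the production of dendritic cells from bone marrow progenitors, and its receptor Flt3 stays on dendritic cells but is lost from monocytes and macrophages.

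Cells were grouped into classes named from marker genes, with no member among the markers or the genes used for clustering. Of 33168 deposited barcodes 27544 were kept, with medians of 3911.5 to 8412 unique molecular identifiers (UMIs, each counting 1 captured RNA molecule) per cell in vehicle libraries and 2483 to 6262 in ginkgetin libraries. The level of a gene in a class is given on the counts-per-million (CPM) scale, its UMIs relative to all UMIs of that class in that library, and triplets of values are in the order of replicates 1, 2 and 3. Libraries with under 10 cells of a class were left out of that class. Replicates 1 and 2 of both groups stood apart from replicate 3, with 10 to 85 cell barcodes shared between libraries of the same set against 0 to 1 across sets, and with 369 well-counted gene symbols found only in the first set and 506 only in the second. All 9 members had UMIs in both sets. Macrophage-like cells numbered 1200, 727 and 1040 in the vehicle libraries and 103, 253 and 533 in the ginkgetin libraries, and their median depth was 10508 against 2197 UMIs. Their markers were found in both groups, but different clusters held them: most vehicle cells were in clusters led by Folr2 and Clec4f, by Gpnmb and Trem2, by Mmp12 or by Ms4a7, and most ginkgetin cells in clusters led by Marco, Cd163 and Timd4. Endothelial-like cells numbered 1241, 547 and 406 in vehicle and 1275, 3365 and 1132 in ginkgetin libraries, again in largely separate clusters. Vehicle cells lay mostly in clusters led by Fabp4 and Lyve1 (replicates 1 and 2) or by Cavin2 and Cebpd (replicate 3). Ginkgetin cells lay mostly in clusters led by Pde2a and Wnt2 or by Ntn4 and Efnb1 (replicates 1 and 2) or by Selenop and Cavin2 (replicate 3). These clusters thus parted by barcode set as well as by group. Stellate-like cells were few (6, 24 and 39 in vehicle and 12, 65 and 38 in ginkgetin libraries), and 376 vehicle and 189 ginkgetin cells were hepatocyte-like although the preparation was of non-parenchymal cells. What these unequal clusters and depths contribute to the differences below was not tested.

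The receptor genes Csf2ra and Csf3r both had their highest mean in monocyte-like cells, among classes with at least 10 cells in 2 or more libraries. In both, the promoter window of RefSeq (build GRCm38.p6, 250 bases before to 50 bases after the start) held GAGGAA, the core letters bound by the myeloid transcription factor PU.1. The first line shows the 150 bases before the Csf2ra start (chr19:61228419-61228568, minus strand) and the second 30 bases around the match in Csf3r (chr4:126024561-126024590, plus strand), which GENCODE places in the first, untranslated exon of 1 of its transcripts. Both are 5′ to 3′ on the strand of the gene, and capitals mark the motif. They are shown because these genes share that class.
Csf2ra: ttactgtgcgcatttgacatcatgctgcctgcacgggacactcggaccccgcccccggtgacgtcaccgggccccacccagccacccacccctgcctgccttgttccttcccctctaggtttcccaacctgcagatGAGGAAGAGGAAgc
Csf3r: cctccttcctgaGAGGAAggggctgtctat
Csf2ra held 2 adjoining matches, which begin 14 and 8 bases before the RefSeq start, and Csf3r 1 match, which begins 86 bases before it. GENCODE, which gave the gene positions printed here, starts Csf2ra a few bases further upstream (61228429), so that by it the first match spans the start and the second lies within the gene. The windows of Csf1, Csf2, Flt3 and Flt3l held none on either strand (reverse complement TTCCTC), and those of Il34, Csf1r and Csf2rb were not analysed here. The window of Csf2rb2, a close paralog of Csf2rb and not a member, held 2 matches, both on the reverse strand. Of 32851 promoter windows of the same length 28.3% held the motif on either strand, so a match is common and is given as a description of the letters only.

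Each gene had a small set of leading classes among those with at least 10 cells in 2 or more libraries. Csf1 had its highest levels in fibroblast-like, stellate-like and endothelial-like cells, Il34 in stellate-like cells, and Csf2 and Flt3l in T or NK cell-like cells. Csf1r was highest in macrophage-like and then monocyte-like cells, Csf2ra and Csf3r in monocyte-like cells, Csf2rb in mature dendritic-like cells and Flt3 in type 1 conventional dendritic cell-like (cDC1-like) cells. Neutrophil-like cells, with enough cells in vehicle replicate 3 alone (28), are left out of this order. In that library they had 463 CPM of Csf3r, 569 of Csf1r, 272 of Csf2ra and 239 of Csf1. This was more Csf3r than any other class and more Csf1 than its stellate-like or endothelial-like cells.

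**Figure D1:**
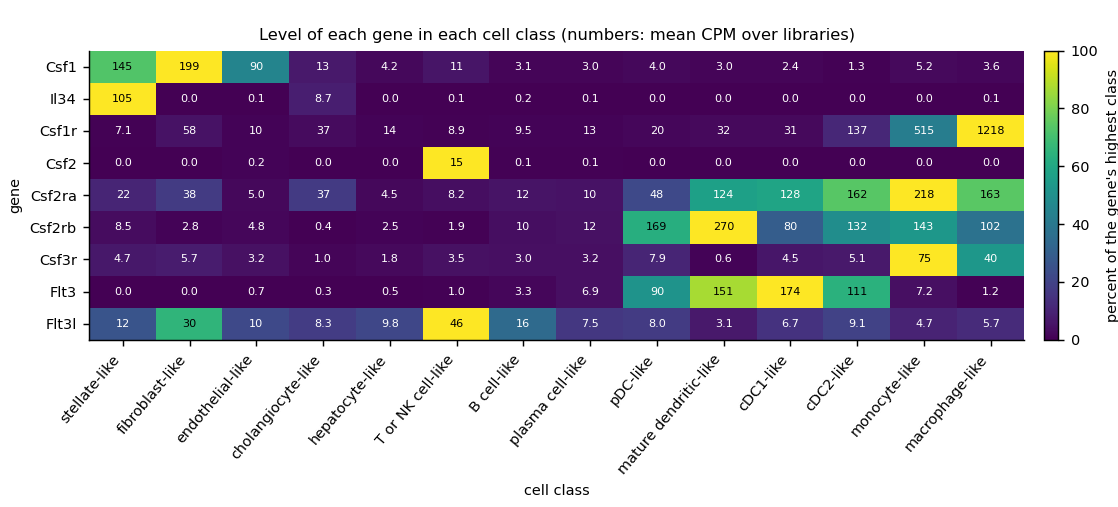
Level of the 9 genes (rows) in 14 cell classes (columns); the number in a cell is the mean CPM over libraries with at least 10 cells, and the colour is that mean as a percent of the gene's highest class. Il34 and Csf2 are each concentrated in 1 or 2 classes, whereas Csf2ra and Csf2rb spread over monocyte-like, macrophage-like and dendritic-like cells.

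Ginkgetin and vehicle libraries were compared by summing the counts of each class per library and fitting edgeR's quasi-likelihood test to all genes of the class, with Benjamini-Hochberg adjustment over them. A gene was called at an adjusted p under 0.05 and a fold over 2. No member was called in any of the 12 classes in which a member could be tested: 0 of 46 pairs of member and class passed in edgeR, with 7 at an unadjusted p under 0.05. DESeq2 called 0 with 6 at an unadjusted p under 0.05, and limma-voom 0 with 7. With the replicate number as a block edgeR called 2 pairs, Csf1 and Flt3l in endothelial-like cells, beside 4.21% of all genes tested there. With a block for the barcode set it called 1, Csf1 in endothelial-like cells, beside 4.51%. Scaling to library totals, chosen after seeing the data, called 1, Csf1r in macrophage-like cells, where it called 1736 genes. The share of all tested genes called was 10.9% in macrophage-like cells, 0.701% in endothelial-like cells, 0.176% in cholangiocyte-like cells, 0.0195% in stellate-like cells and 0.0167% in cDC2-like cells. In T or NK cell-like, B cell-like, plasma cell-like, monocyte-like, cDC1-like, mature dendritic-like and plasmacytoid dendritic (pDC-like) cells it was 0%. The 7 pairs at an unadjusted p under 0.05 were Csf1 and Flt3l in endothelial-like cells, Flt3l in T or NK cell-like cells, Csf1r in macrophage-like and in cholangiocyte-like cells, Csf2rb in pDC-like cells and Flt3 in monocyte-like cells, and all had a fold change above 0.

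**Figure D2:**
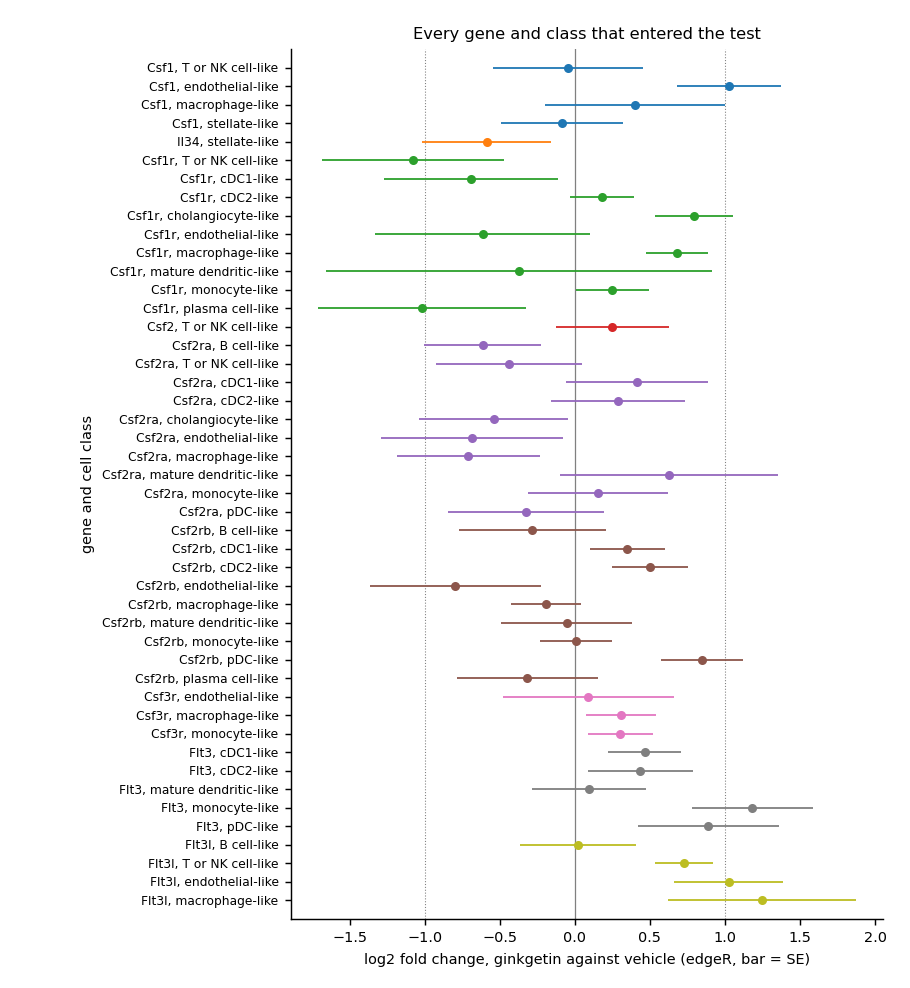
The log2 fold change (ginkgetin against vehicle, edgeR) of every member in every class that entered the test, with a bar for 1 SE and 1 colour per gene; dotted lines mark a 2-fold difference. Flt3l in macrophage-like (1.25) and endothelial-like cells (1.02), Flt3 in monocyte-like cells (1.18) and Csf1 in endothelial-like cells (1.03) lie above the upper dotted line and Csf1r in T or NK cell-like (-1.08) and plasma cell-like cells (-1.02) below the lower one, and none of the 46 points passed the adjusted test.

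Among the ligands, Csf1 (GRCm38 chromosome 3, 107741048 to 107760469, minus strand) was made mostly by mesenchymal and endothelial cells. In stellate-like cells, the vitamin A-storing pericytes of the liver, it was at 114 and 183 CPM in vehicle replicates 2 and 3 and at 94.3, 133 and 203 CPM in the ginkgetin libraries. The ranges overlapped (log2 fold change -0.09, SE 0.41, adjusted p 0.999, edgeR). Fibroblast-like cells had 110.2 and 281 CPM in vehicle replicates 2 and 3 and 206 CPM in ginkgetin replicate 3, the only libraries with enough of these cells.

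Endothelial-like cells had Csf1 at 42.1, 30 and 96.1 CPM in the vehicle libraries and at 91.9, 109.6 and 169 CPM in the ginkgetin libraries. Vehicle replicate 3 lay just above ginkgetin replicate 1, so the groups overlapped, while within each barcode set every ginkgetin library was above every vehicle library. The log2 fold change was 1.03 (SE 0.35) with an adjusted p of 0.26 in edgeR. With the replicate number as a block it was 1.07 with an adjusted p of 0.0154, which passed both limits, in a fit that called 4.21% of all tested genes. With a block for the barcode set it was 1.07 with an adjusted p of 0.00671, and that fit called 4.51%. The adjusted p ranged from 0.00671 to 0.651 over 17 alternatives.

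The endothelial value mixed, in unequal numbers, clusters with and without Stab2, a scavenger receptor of sinusoidal endothelium, among their detected markers. The vehicle libraries had 1008, 487 and 38 cells in clusters with it and the ginkgetin libraries 1220, 3002 and 1019. The division was by cluster and not by the Stab2 UMIs of a cell. In vehicle replicate 3, 361 cells lay in a cluster where Stab2 did not reach the naming limits but Kdr, Pecam1 and Clec4g did. In clusters with Stab2 Csf1 was at 44.4, 33.3 and 201 CPM (vehicle) and 96.3, 119 and 183 CPM (ginkgetin), where vehicle replicate 3, resting on its few cells, was the highest of all libraries. The log2 fold change there was 0.64 (SE 0.55, adjusted p 0.651 in edgeR, with 0.269% of genes called). It was 0.84 with either block and was not called (adjusted p 0.152 with the replicate block and 0.0884 with the barcode-set block). In the clusters without it Csf1 was at 34.5, 12.4 and 90.1 CPM (vehicle) and 26.2, 51.9 and 55 CPM (ginkgetin) (log2 fold change -0.05, SE 0.52, adjusted p 1.0). Dividing by Stab2 was chosen after seeing the data, and whether the divisions differ from each other was not tested. By single clusters, the one led by Fabp4 and Lyve1 had 44.5 and 34.4 CPM in vehicle replicates 1 and 2, and the one led by Pde2a and Wnt2 had 102 and 122 CPM in ginkgetin replicates 1 and 2. A cluster led by Edn1 and Vwf, which held cells of both groups, had 33.9 and 12.6 CPM in vehicle and 26.2 and 51.4 CPM in ginkgetin replicates 1 and 2.

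The share of endothelial-like cells with a Csf1 UMI, after thinning each cell to 1000 UMIs, was 3.71, 3.84 and 7.52% in vehicle and 8.0, 10.3 and 14.6% in ginkgetin libraries. These groups did not overlap (exact two-sided permutation p 0.1, the smallest that 3 libraries against 3 can give, and 0.915 after adjustment over 51 pairs). For such shares, here and below, how many of all genes did not overlap was not counted. Without thinning the shares were 10.9, 7.68 and 39.7% (vehicle) and 17.9, 23.5 and 57.8% (ginkgetin). In B cell-like cells, which should lack Csf1, the thinned shares were 0, 0 and 1.13% (vehicle) and 0.317, 0.64 and 0.529% (ginkgetin), at median depths of 2772.5 and 2054 UMIs before thinning against 2914 and 2638 in endothelial-like cells. A share of 0 in 311 and 264 cells allows up to 0.965% and 1.14%, and such limits cover counting error only.

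T or NK cell-like cells had Csf1 at 16.4, 5.18 and 11.8 CPM in vehicle and 7.41, 18 and 9.78 CPM in ginkgetin libraries, and macrophage-like cells, which carry its receptor, at 2.1, 2.0 and 4.48 CPM (vehicle) and 0, 5.59 and 7.53 CPM (ginkgetin). In neither class did the difference exceed the spread of the libraries (log2 fold change -0.04, SE 0.50, and 0.40, SE 0.60). The 0 of ginkgetin replicate 1 in macrophage-like cells allows a level of up to 9.3 CPM. Of all Csf1 UMIs of a library, endothelial-like cells held 43.5% ± 5.51 (SD, n = 3) in vehicle and 85% ± 1.27 (SD, n = 3) in ginkgetin libraries, a share that moves with the number of endothelial-like cells in the library as well as with the level per cell.

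**Figure D3:**
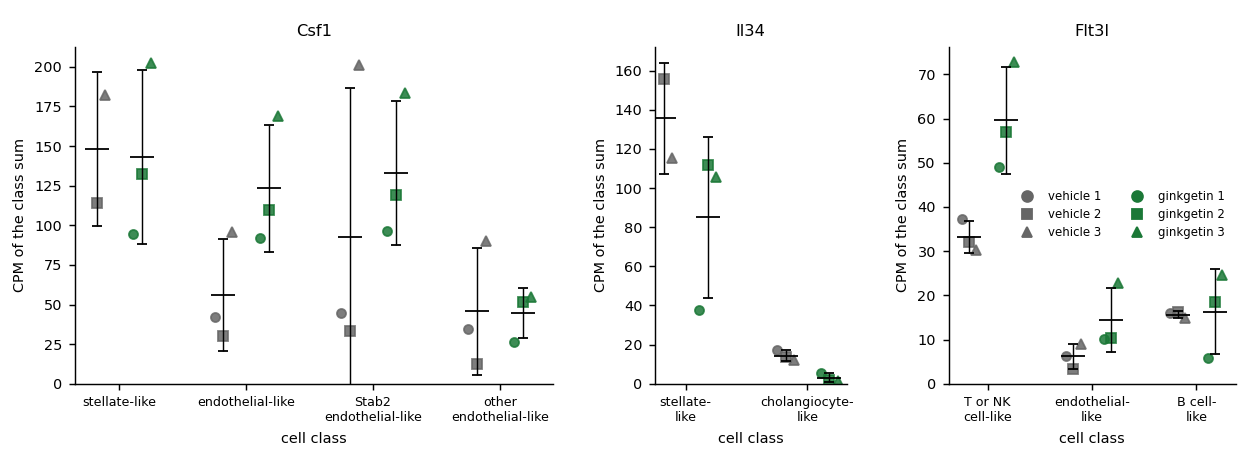
CPM of Csf1, Il34 and Flt3l in the classes that made them, in vehicle (grey) and ginkgetin (green) libraries; circles, squares and triangles are replicates 1, 2 and 3, and black marks are the mean ± SD, with 1 lower bar reaching the axis at 0. For Flt3l in T or NK cell-like cells all 3 ginkgetin libraries lie above all 3 vehicle libraries, and for Csf1 in stellate-like cells the groups overlap.

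Il34 (chromosome 8, 110741829 to 110805924, minus strand), the second ligand of Csf1r, was found mainly in stellate-like and cholangiocyte-like cells (the lining cells of the bile ducts), which held a mean of 64.1% and 27.6% of its UMIs. The order was the opposite in both replicate 1 libraries, where cholangiocyte-like cells held 65.6% (vehicle) and 50% (ginkgetin) and stellate-like cells 31.2% and 33.3%. Stellate-like cells had 156 and 116 CPM in vehicle replicates 2 and 3 and 37.7, 112 and 106 CPM in the ginkgetin libraries, with ginkgetin replicate 1, which rests on 12 cells, lowest. All 3 ginkgetin libraries lay below both vehicle libraries, as for 11.9% of the genes tested in this class, and the difference did not pass (log2 fold change -0.59, SE 0.43, adjusted p 0.851, edgeR). The level also varied among clusters of stellate-like cells: of those with replicates 1 and 2, the cluster led by Col14a1 and Colec11 had 203 CPM and that led by Dcn, Cxcl12 and Reln 35.5 CPM, both in ginkgetin replicate 2. Of those with replicate 3, the cluster led by Colec11 and Col14a1 had 281 CPM in vehicle and 202 CPM in ginkgetin replicate 3, against 63.7 CPM in the cluster led by Lum and Col1a1 in vehicle replicate 3. These are single libraries with 11 to 34 cells each, given without a test.

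Cholangiocyte-like cells had Il34 at 17.4, 13.6 and 12.2 CPM in vehicle and 5.72, 2.09 and 1.47 CPM in ginkgetin libraries. These rest on 21, 11 and 8 UMIs in vehicle and 3, 2 and 1 in ginkgetin libraries, and the gene was left out of the test in this class by the filter on low counts.

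Csf2 (chromosome 11, 54247271 to 54249667, minus strand), a cytokine of activated lymphocytes, came from T or NK cell-like cells, which held a mean of 89.4% of its UMIs. Its level there was 18.9, 11.3 and 10.3 CPM in vehicle and 20.9, 15.1 and 14.9 CPM in ginkgetin libraries, and the groups overlapped (log2 fold change 0.25, SE 0.38, adjusted p 0.841, edgeR). A finer clustering of the lymphoid cells placed the groups largely apart: 26 of 36 clusters, with 80.3% of the cells, drew over 90% of their cells from 1 group. It was run within each barcode set, and replicate 3 gives 1 library per group. Many of these clusters came almost wholly from 1 library, such as 376 of 387 cells from ginkgetin replicate 1 and 382 of 385 from ginkgetin replicate 2. Separation by group and by library cannot be told apart there. Of 3050 vehicle and 2695 ginkgetin T or NK cell-like cells, 1891 and 747 were named T cell-like and 352 and 259 NK or ILC1-like, and the rest stayed without a finer name. NK or ILC1-like cells had 38.3, 13.3 and 27.8 CPM in vehicle and 16.3, 17.1 and 18.1 CPM in ginkgetin libraries, and T cell-like cells 18.6, 13.9 and 5.96 CPM (vehicle) and 6.57, 5.67 and 1.57 CPM (ginkgetin). The cells without a finer name had 7.69, 5.98 and 12.7 CPM (vehicle) and 36.4, 17.1 and 16.4 CPM (ginkgetin), given without a test. In all, 372 UMIs of Csf2 were counted over the 6 libraries, and none of them lay in stellate-like, cholangiocyte-like, cDC1-like, cDC2-like, pDC-like or mature dendritic-like cells.

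Flt3l (chromosome 7, 45129788 to 45136432, minus strand) was highest in T or NK cell-like cells, at 37.2, 32 and 30.3 CPM in vehicle and 49, 57 and 72.8 CPM in ginkgetin libraries. All 3 ginkgetin libraries were above all 3 vehicle libraries, as was the case for 8.04% of all genes tested in this class, and of the 5 members tested there Flt3l was the only one. As the cells of the groups, and often of single libraries, lay largely in separate lymphoid clusters, the value is not one within a shared population. The log2 fold change was 0.73 (SE 0.19) with an unadjusted p of 0.00648 and an adjusted p of 0.309 in edgeR, which does not pass, and the adjusted p ranged from 0.063 to 0.812 over 16 alternatives. The thinned share of these cells with a Flt3l UMI was 3.56, 1.96 and 3.13% in vehicle and 6.03, 5.25 and 7.32% in ginkgetin libraries (exact two-sided permutation p 0.1, adjusted 0.915). Unthinned, the shares were 12.4, 9.23 and 13.2% (vehicle) and 12.2, 14.5 and 35.9% (ginkgetin), which overlap. In monocyte-like cells, where little Flt3l would be looked for, the thinned shares were 0.109, 0.444 and 0% (vehicle) and 0, 0.50 and 0% (ginkgetin), at median depths of 6625 and 5333 UMIs against 3396.5 and 3089 UMIs in T or NK cell-like cells.

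Endothelial-like cells had Flt3l at 6.27, 3.26 and 8.98 CPM in vehicle and 10.2, 10.4 and 22.7 CPM in ginkgetin libraries. Here too no ginkgetin library overlapped the vehicle libraries, a pattern shared by 11.6% of all genes tested in the class and by 1 of the 6 members tested. The log2 fold change was 1.02 (SE 0.36, adjusted p 0.283 in edgeR), 1.04 with the replicate block (adjusted p 0.0419, called) and 0.99 with the barcode-set block (adjusted p 0.0336, just under 2-fold). The adjusted p ranged from 0.0336 to 0.747 over 17 alternatives. In the clusters with Stab2 it was at 5.88, 2.32 and 11.2 CPM (vehicle) and 10.5, 9.58 and 23.7 CPM (ginkgetin) (log2 fold change 1.25, SE 0.49, adjusted p 0.313, edgeR), and it was not called there under a block either (adjusted p 0.145 with the replicate block and 0.139 with the barcode-set block). Over all endothelial-like cells these are 383 UMIs of Flt3l in total. B cell-like cells had 15.9, 16.2 and 14.8 CPM (vehicle) and 5.79, 18.5 and 24.7 CPM (ginkgetin), with no difference beyond the spread (log2 fold change 0.02, SE 0.39, adjusted p 0.99). In macrophage-like cells Flt3l was at 3.61, 2.84 and 2.47 CPM in vehicle and 0, 8.38 and 17.1 CPM in ginkgetin libraries, which overlapped (log2 fold change 1.25, SE 0.63, adjusted p 0.218, edgeR).

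Turning to the receptors, Csf1r (chromosome 18, 61100598 to 61132149, plus strand) had 44920 UMIs, of which macrophage-like cells held a mean of 67.0% and monocyte-like cells 19.5%. In macrophage-like cells it was at 722, 756 and 816 CPM in vehicle and 1656, 1673 and 1687 CPM in ginkgetin libraries. The groups lay far apart and each was narrow. Csf1r was the only 1 of the 6 members tested in this class whose ginkgetin libraries all lay above the vehicle libraries, in a class where 33.3% of all tested genes did so. The log2 fold change was 0.68 (SE 0.21) after TMM normalization, under 2-fold, with an adjusted p of 0.0715 in edgeR.

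Scaling set the size of this difference. TMM factors, which assume that most genes do not differ, differed between the groups by 0.46 on the log2 scale in macrophage-like cells, and the median log2 fold change over all genes tested was 0.03 with them and 0.52 with scaling to library totals. With library totals alone, an alternative chosen after seeing the data, the log2 fold change of Csf1r was 1.13 with an adjusted p of 0.013, and the gene was called. With the replicate block it was 0.67 (adjusted p 0.0247, not past 2-fold), and the adjusted p ranged from 0.00853 to 0.25 over 16 alternatives. Counted per cell, the means stood the other way round: macrophage-like cells had 7.16, 6.23 and 13.7 Csf1r UMIs per cell in vehicle and 5.18, 4.74 and 6.31 in ginkgetin libraries, with ginkgetin replicate 3 just above vehicle replicate 2. The ginkgetin cells also had fewer UMIs in total, as given above, so that Csf1r was a larger part of fewer molecules.

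At an equal depth of 1000 UMIs per cell, 52, 51.6 and 53.9% of vehicle and 76.7, 76.3 and 74.2% of ginkgetin macrophage-like cells had a Csf1r UMI (exact two-sided permutation p 0.1, adjusted 0.915). Unthinned, the shares were 97.2, 96 and 97.4% (vehicle) and 96.1, 92.9 and 85.7% (ginkgetin), in which the order between groups is not that of the CPM. In T or NK cell-like cells, which should lack Csf1r, the thinned shares were 0.945, 1.12 and 1.36% (vehicle) and 0.266, 1.13 and 0.348% (ginkgetin), at median depths of 3396.5 and 3089 UMIs before thinning against 10508 and 2197 UMIs. Thinning left out 2 vehicle and 57 ginkgetin macrophage-like cells.

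The macrophage-like class was divided by markers into Kupffer-like cells and a group marked by Trem2 and Gpnmb, genes of lipid-associated macrophages. A cluster went to the division with the larger share of its markers detected. In this way 2 clusters of 439 and 161 cells, all but 2 of them from vehicle libraries and with Mmp12 and Gpnmb among their leading genes, were placed in the Trem2 Gpnmb group although the Kupffer cell markers Clec4f, Vsig4 and Cd5l were detected in both. Their Csf1r levels were 692, 651 and 787 CPM in vehicle replicates 1, 2 and 3, and the values of both divisions depend on this placement. Kupffer-like cells had Csf1r at 970.4, 1001 and 1106 CPM in vehicle and 1832, 1788 and 1742 CPM in ginkgetin libraries, again without overlap, as for 29.4% of all genes tested in them (log2 fold change 0.41, SE 0.23, adjusted p 0.282, edgeR, with 6.61% of genes called). The Trem2 Gpnmb group, of which the ginkgetin libraries held 14, 42 and 40 cells, had 611, 608 and 679 CPM (vehicle) and 985, 1369.7 and 1409 CPM (ginkgetin), which did not overlap either, as for 16.2% of its tested genes (log2 fold change 0.69, SE 0.23, adjusted p 0.193, with 0.185% called). With TMM and no block neither division passed the adjusted test. In the Trem2 Gpnmb group the adjusted p was 0.00215 with the replicate block (log2 fold change 0.68) and 0.0165 once blocked by barcode set (0.70), neither past 2-fold. In Kupffer-like cells the adjusted p was 0.18 and 0.131 under these blocks. Over the alternatives the adjusted p ranged from 0.00215 to 0.457 over 15 alternatives in the first and from 0.0419 to 0.571 over 15 alternatives in the second. Library totals alone gave log2 fold changes of 0.81 in Kupffer-like (adjusted p 0.0419) and 1.0 in the Trem2 Gpnmb cells (adjusted p 0.0889).

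Since the groups occupied different clusters, the few clusters with at least 10 cells of both are described here, without a test. The cluster led by Folr2 and Clec4f had 973 and 1024 CPM in vehicle replicates 1 and 2 and 1948 CPM in the 10 cells of ginkgetin replicate 2. Its counterpart among cells of replicate 3 had 1106 CPM in vehicle and 1670.4 CPM in the 10 cells of ginkgetin replicate 3. The cluster led by Ms4a7 and Pf4 had 734 and 794 CPM in vehicle and 1006 and 1369.7 CPM in ginkgetin replicates 1 and 2, and its counterpart 777 and 1487 CPM in replicates 3. Among vehicle cells the level also differed by cluster, being lowest where Gpnmb and Trem2 led (407, 401 and 536 CPM in replicates 1, 2 and 3).

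**Figure D4:**
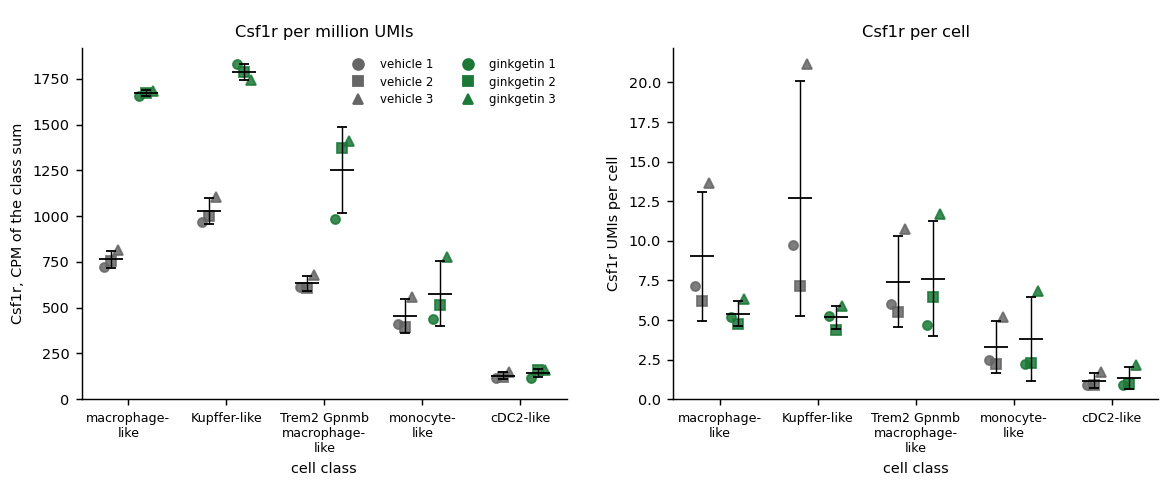
Csf1r in macrophage-like cells, their Kupffer-like and Trem2 Gpnmb divisions, monocyte-like and cDC2-like cells, as CPM of the class sum (left) and as UMIs per cell (right); colours and symbols are vehicle (grey), ginkgetin (green) and replicates 1 to 3, and black marks are the mean ± SD. The left panel places all ginkgetin macrophage-like libraries (from 1656 CPM) above all vehicle libraries (to 816 CPM), and the right panel places the means in the reverse order.

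Monocyte-like cells had Csf1r at 409, 393 and 561 CPM in vehicle and 439, 514 and 776 CPM in ginkgetin libraries, and cDC2-like cells at 117, 121 and 151 CPM (vehicle) and 118, 157 and 158 CPM (ginkgetin). In neither was the difference larger than the spread (log2 fold change 0.25, SE 0.24, and 0.18, SE 0.21). No monocyte-like value reached that of any macrophage-like library of its own group, and every monocyte-like library lay above every cDC2-like library. Cholangiocyte-like cells, which are not a usual site of this receptor, had 25.7, 28.4 and 29 CPM in vehicle and 38.1, 57.6 and 44.1 CPM in ginkgetin libraries, which did not overlap, as for 8.29% of the genes tested there (log2 fold change 0.79, SE 0.26, adjusted p 0.277). The summed level of the macrophage markers in these cells lay between 90 and 202 CPM in vehicle and between 30.9 and 129 CPM in ginkgetin libraries.

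Low Csf1r levels were also counted in cells that should have little or none of it, and there no fold change was called. In contrast to cholangiocyte-like cells, the log2 fold change was below 0 in these classes: -1.08 in T or NK cell-like cells, -0.61 in endothelial-like cells, -1.02 in plasma cell-like cells and -0.69 in cDC1-like cells, with adjusted p of 0.542, 0.79, 0.589 and 0.60 in edgeR. The summed level of the macrophage markers moved with it: in endothelial-like cells it lay between 202 and 363 CPM in vehicle and between 60.4 and 154 CPM in ginkgetin libraries, and in T or NK cell-like cells between 196 and 279.8 and between 58.3 and 134 CPM. Its part in these values was not tested.

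Csf2ra (chromosome 19, 61223957 to 61228429, minus strand), the alpha chain that binds Csf2, was highest in monocyte-like cells, at 72.9, 225 and 302 CPM in vehicle and 207, 179 and 324 CPM in ginkgetin libraries. Vehicle replicate 1 stood far below the other libraries. The same was seen in macrophage-like cells (59.9, 210.2 and 265 CPM in vehicle and 133, 163 and 144 CPM in ginkgetin libraries) and in cDC1-like cells (37, 126 and 178 CPM (vehicle) and 146, 128 and 152 CPM (ginkgetin)). Vehicle replicate 1 was the lowest library in 7 of the 10 classes tested for this gene, at a median of 0.396 of the median of the other libraries. Csf2ra was 1 of 12 genes, of 1629 with at least 50 CPM, that were low in this library across 4 myeloid classes. The others were Jund and Fosb, which encode AP-1 transcription factors, Tgfb1, Scand1, Ptms, Nfkbid, Abhd17a, Kdm6b, Gm26917, Gm42418 and AY036118. Why they were low in this library was not tested. The sign or the size of some differences turned on this 1 library. In monocyte-like cells the log2 fold change was 0.15 (SE 0.47) with all libraries and -0.24 without vehicle replicate 1 (adjusted p 0.924 and 0.906, edgeR). In cDC1-like cells it was 0.41 and 0.00.

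In macrophage-like cells the fold change of Csf2ra was below 0 with and without vehicle replicate 1 (log2 fold change -0.71, SE 0.48, adjusted p 0.353, and -1.10, adjusted p 0.109, edgeR), and neither passed. In its Kupffer-like division the levels were 54.7, 174 and 232 CPM in vehicle and 97.9, 112 and 121 CPM in ginkgetin libraries (log2 fold change -0.85, SE 0.45, adjusted p 0.252). The Trem2 Gpnmb division, by contrast, had 62.3, 232 and 280.2 CPM (vehicle) and 269, 299 and 256 CPM (ginkgetin), with vehicle replicates 2 and 3 inside or next to the range of the ginkgetin libraries. In this division of the clusters, Kupffer-like cells had less Csf2ra than the Trem2 Gpnmb cells in every library. Dendritic cells also carried the gene: cDC2-like cells had 55.3, 155 and 231 CPM (vehicle) and 183, 142 and 205 CPM (ginkgetin). Mature dendritic-like cells had 18.6, 132 and 147 CPM in vehicle and 149 and 172 CPM in ginkgetin replicates 2 and 3, and pDC-like cells had 18.7, 66.9 and 81.9 CPM (vehicle) and 41.7, 37.1 and 43.9 CPM (ginkgetin). In mature dendritic-like cells both ginkgetin libraries lay just above all 3 vehicle libraries, as for 16.9% of the genes tested there (log2 fold change 0.63, SE 0.73, adjusted p 0.844, edgeR), and in cDC2-like and pDC-like cells the groups overlapped.

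Csf2rb (chromosome 15, 78325752 to 78353847, plus strand), the signalling beta chain, lies 20030 bases from its close paralog Csf2rb2, which mice use for interleukin-3, so reads of the pair may have been split between them and the values of both are uncertain. Mature dendritic-like cells had the highest mean level, at 209, 320.2 and 281 CPM in vehicle and 149 and 389.6 CPM in ginkgetin replicates 2 and 3. In monocyte-like cells it was at 126, 125 and 164 CPM (vehicle) and 153, 103 and 186 CPM (ginkgetin), and in macrophage-like cells at 80.9, 74 and 123 CPM (vehicle) and 105, 86.6 and 143 CPM (ginkgetin). The groups overlapped in each (log2 fold change 0.01, SE 0.24, adjusted p 0.998 in monocyte-like and log2 fold change -0.19, SE 0.23, adjusted p 0.632 in macrophage-like cells, edgeR). In macrophage-like cells the sign turned with library totals alone (0.28).

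Csf2rb had its lowest p in pDC-like cells, the interferon-producing dendritic cells, where it was at 141, 112 and 113 CPM in vehicle and 175, 178 and 294 CPM in ginkgetin libraries. The ginkgetin libraries were all above the vehicle libraries, as for 4.9% of the genes tested in this class, and the adjusted test did not pass (log2 fold change 0.84, SE 0.27, p 0.0118 unadjusted and 0.639 adjusted, edgeR). The vehicle libraries had 98, 46 and 28 of these cells and the ginkgetin libraries 23, 100 and 44. In cDC2-like cells the levels were 103, 103 and 118 CPM (vehicle) and 135, 99.3 and 232 CPM (ginkgetin), and in cDC1-like cells 69.2, 75.3 and 69 CPM (vehicle) and 64, 69.3 and 133 CPM (ginkgetin), where ginkgetin replicate 3 was the highest library of each.

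**Figure D5:**
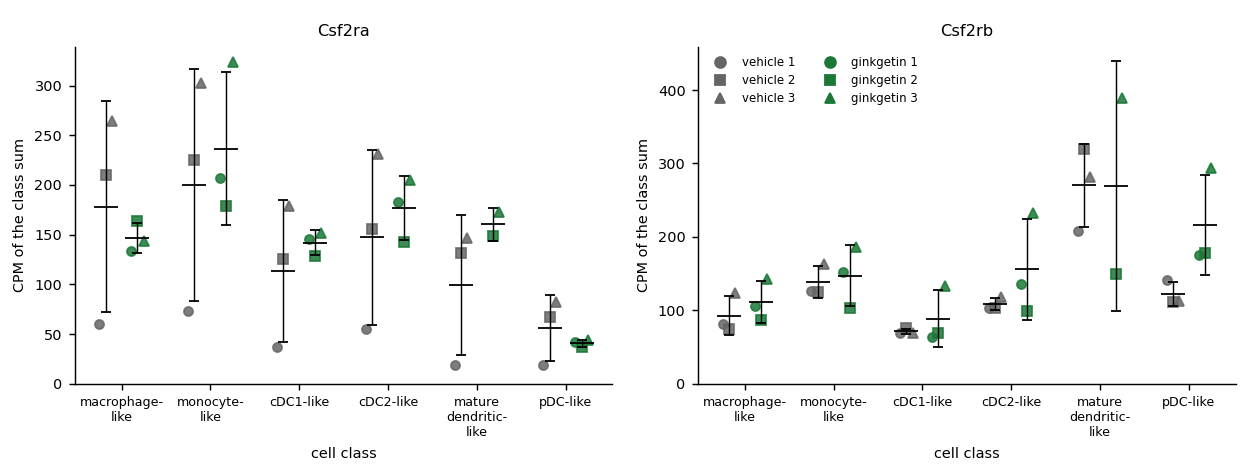
CPM of Csf2ra (left) and Csf2rb (right) in 6 myeloid classes, with vehicle libraries in grey, ginkgetin libraries in green, circles, squares and triangles for replicates 1, 2 and 3 and black marks for the mean ± SD. The grey circle, vehicle replicate 1, is the lowest point of Csf2ra in monocyte-like cells (72.9 CPM), which it is not for Csf2rb.

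Csf3r (chromosome 4, 126024550 to 126044440, plus strand) would be looked for in neutrophils, but only 28 neutrophil-like cells in vehicle replicate 3 and 9 in ginkgetin replicate 3 were found, at 463 and 546 CPM, too few for a comparison. In monocyte-like cells it was at 60.2, 62.4 and 72 CPM in vehicle and 55.6, 86.8 and 113 CPM in ginkgetin libraries, and in macrophage-like cells at 25, 25.1 and 39.1 CPM (vehicle) and 34.1, 47.5 and 67.7 CPM (ginkgetin). The ranges overlapped in both (log2 fold change 0.30, SE 0.22, adjusted p 0.562, and log2 fold change 0.31, SE 0.23, adjusted p 0.412, edgeR). In the Kupffer-like division, 24.1, 30.5 and 34 CPM in vehicle stood against 43.1, 50.1 and 66.2 CPM in ginkgetin libraries, which did not overlap, as for 29.4% of the genes tested there, and did not pass (log2 fold change 0.46, SE 0.20, adjusted p 0.191).

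Flt3 (chromosome 5, 147330741 to 147400489, minus strand) followed the dendritic classes. In cDC1-like cells, the cross-presenting dendritic cells, it was at 183, 108 and 159 CPM in vehicle and 174, 157 and 265 CPM in ginkgetin libraries (log2 fold change 0.47, SE 0.24, adjusted p 0.396, edgeR). In cDC2-like cells it was at 88.4, 72.1 and 117 CPM (vehicle) and 72.6, 83 and 234 CPM (ginkgetin), in pDC-like cells at 67.8, 22.3 and 105 CPM (vehicle) and 66.8, 83.4 and 193 CPM (ginkgetin), and in mature dendritic-like cells at 168, 94.2 and 170.3 CPM in vehicle and 134 and 190.3 CPM in ginkgetin replicates 2 and 3. Ginkgetin replicate 3 was the highest library in all 4 classes, and the groups overlapped in each. The thinned share of cDC1-like cells with a Flt3 UMI was 14.1, 11.9 and 11.4% in vehicle and 15.1, 16.3 and 26% in ginkgetin libraries (exact two-sided permutation p 0.1, adjusted 0.915), against 0.0806, 0 and 0% (vehicle) and 0, 0.119 and 0.177% (ginkgetin) in endothelial-like cells, which should lack it and where a 0 allows up to 0.752% in the library with the fewest cells. Median depths were 13861.5 and 11205 UMIs in cDC1-like and 2914 and 2638 UMIs in endothelial-like cells. The unthinned shares in cDC1-like cells were 83.7, 52.5 and 87.3% (vehicle) and 79.2, 69.6 and 94% (ginkgetin).

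Monocyte-like cells had little Flt3, at 3.4, 3.95 and 5.35 CPM in vehicle and 8.68, 5.64 and 16.5 CPM in ginkgetin libraries, which rest on 86 UMIs in all. The ginkgetin libraries were above the vehicle libraries and the difference did not pass (log2 fold change 1.18, SE 0.40, adjusted p 0.272, edgeR). In this class 8.69% of all tested genes, and 1 of the 5 members tested, were higher in every ginkgetin library. The ranges of pDC-like and monocyte-like cells did not overlap, with pDC-like cells higher.

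Over whole libraries, without regard to class, the order between groups could differ from that within a class. Csf1r was at 336, 346 and 432 CPM in vehicle and 78.5, 96.7 and 189 CPM in ginkgetin libraries, the opposite order to that within macrophage-like cells, and Csf1 was at 9.41, 6.74 and 17.1 CPM (vehicle) and 28.5, 50.5 and 68.2 CPM (ginkgetin). Macrophage-like cells were fewer and endothelial-like cells a larger share in the ginkgetin libraries, as given above. Csf2rb was at 62.9, 60.7 and 88 CPM (vehicle) and 24.2, 23.9 and 45.5 CPM (ginkgetin), Csf3r at 19.1, 18.7 and 31.3 CPM (vehicle) and 5.44, 10.2 and 16.4 CPM (ginkgetin) and Flt3l at 9.58, 7.84 and 6.92 CPM (vehicle) and 21.6, 16.4 and 30.1 CPM (ginkgetin). In such totals fewer cells of a type and less RNA per cell cannot be told apart.

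Genes that work with the members were taken from a list of 46 other ligands and receptors, adaptors and kinases, transcription factors, negative regulators, proteases and induced genes. In macrophage-like cells 40 of them were tested: 1 rose, 2 fell and 37 were not called, beside 10.9% called among all genes there. The median log2 fold change over the 40 was 0.27, against 0.03 over all genes tested.

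Kit, the receptor for stem cell factor and a relative of Csf1r and Flt3, rose in macrophage-like cells from 0.588, 0.334 and 0.115 CPM in vehicle to 3.1, 19.5 and 4.52 CPM in ginkgetin libraries (log2 fold change 4.24, SE 0.92, adjusted p 0.030, edgeR). These levels rest on few UMIs. The 3.1 CPM of ginkgetin replicate 1 lies under the limit given above for a gene without counts in that library. Endothelial-like cells expressed Kit at 126, 114 and 84.1 CPM (vehicle) and 228, 151 and 201 CPM (ginkgetin), and Kit was among the leading genes of their cluster with Pde2a and Wnt2. The summed level of the endothelial markers in macrophage-like cells moved the same way, lying between 87.3 and 114 CPM in vehicle and between 403 and 1296 CPM in ginkgetin libraries, with all 7 markers counted in both, and its part in the value of Kit was not tested. The call of Kit was lost without ginkgetin replicate 1, 2 or 3 (adjusted p 0.0663, 0.133 and 0.0564), and with no filter on genes (adjusted p 0.0511), and without any 1 vehicle library its counts did not pass the filter and it was not tested.

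Sdc1, a heparan sulfate proteoglycan that can bind Il34, fell from 9.58, 7.68 and 13.2 to 0, 2.79 and 2.01 CPM (log2 fold change -2.90, SE 0.50, adjusted p 0.0185, edgeR). The 0 of ginkgetin replicate 1 allows up to 9.3 CPM, a level inside the vehicle range, and the other ginkgetin levels of Sdc1 rest on few UMIs. Bcl2a1b, an anti-apoptotic gene that Csf2 induces and that has near-identical copies, so that its counts may be split among them, fell from 711, 737 and 862 to 406, 275 and 149 CPM (log2 fold change -1.88, SE 0.44, adjusted p 0.0357). Both calls were lost without vehicle replicate 1, vehicle replicate 2, ginkgetin replicate 2 or ginkgetin replicate 3, and that of Bcl2a1b also without vehicle replicate 3 (adjusted p 0.0295 to 0.119 for Sdc1 and 0.0473 to 0.149 for Bcl2a1b over the 6 libraries left out in turn). Bcl2a1b was also not called with the UMI filter on cells (adjusted p 0.0649) or with each library clustered alone (0.0849). Another 2 listed genes passed the adjusted p but not 2-fold: Ccnd1, a cyclin that Csf1 induces, at 62.8, 72.5 and 69.9 CPM (vehicle) and 149, 141 and 186 CPM (ginkgetin) (log2 fold change 0.75, SE 0.17, adjusted p 0.0352), and Stat5b. The latter, a transcription factor downstream of Csf2, was at 16.4, 15.9 and 19.5 CPM (vehicle) and 43.4, 41.9 and 40.6 CPM (ginkgetin) (log2 fold change 0.81, SE 0.20, adjusted p 0.0406). Neither had an adjusted p under 0.05 without any 1 of the 6 libraries (0.0652 to 0.155 for Ccnd1 and 0.0592 to 0.172 for Stat5b, edgeR). The adjusted p ranged from 0.00665 to 0.155 over 16 alternatives for Ccnd1 and from 0.0133 to 0.431 over 16 alternatives for Stat5b, and library totals alone put both past 2-fold.

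In the Kupffer-like division 38 listed genes were tested, of which 1 rose, 1 fell and 36 were not called, against 6.61% of all genes tested there that were called. Pim1, a kinase gene induced by cytokine receptors, rose from 40.7, 36.2 and 76.2 to 137, 179 and 238 CPM (log2 fold change 1.46, SE 0.28, adjusted p 0.0328, edgeR), and Bcl2a1b fell from 436, 488 and 624 to 254, 146 and 76.5 CPM (log2 fold change -2.06, SE 0.49, adjusted p 0.0487). The call of Bcl2a1b was lost without any 1 of the 6 libraries (adjusted p 0.0668 to 0.196), with the UMI filter on cells (0.133) and with RLE normalization (0.0506), and that of Pim1 without any 1 other than vehicle replicate 3 (adjusted p 0.0367 to 0.174). In endothelial-like clusters with Stab2, 1 of 39 fell, against 0.269% of all genes tested there that were called. This was Ccl2, the chemokine that draws Ccr2-bearing monocytes, which went from 68.6, 72 and 78.1 to 3.5, 4.14 and 4.02 CPM (log2 fold change -4.40, SE 0.20, adjusted p 0.00114). That call was lost without vehicle replicate 1, ginkgetin replicate 1 or ginkgetin replicate 2 (adjusted p 0.0558, 0.106 and 0.0687), while the log2 fold change stayed between -4.48 and -4.29 over the 6 libraries left out in turn. Over all endothelial-like cells Ccl2 was at 54.2, 60.7 and 13.8 CPM (vehicle) and 3.28, 3.88 and 3.67 CPM (ginkgetin) and was not called (log2 fold change -3.77, SE 0.66, adjusted p 0.0769). With the replicate block it was called (log2 fold change -3.44, adjusted p 0.00502, and 1.50e-07 to 0.349 over 16 alternatives). None of the listed genes was called in the other classes and divisions with a member tested, at 20 to 39 tested per class in edgeR, where 0 to 10 genes per class had an unadjusted p under 0.05.

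The genes whose levels over the 14 class means were most like each member's, among 6835 genes, are given as a description, since the points share libraries and depth. For Csf1 they were Tgfb1i1 (r = 0.99), Col5a2 (r = 0.98) and Tgfbr3 (r = 0.98), and for Il34 Arvcf (r = 0.99), Epha7 (r = 0.98) and Unc5b (r = 0.97). Csf1r was closest to Fcgr3 (r = 0.97), Fcgr4 (r = 0.97) and Pilrb2 (r = 0.96), which include the Fc receptor genes Fcgr3 and Fcgr4 of macrophages. Csf2ra was closest to Il1b (r = 0.92), Lgals3 (r = 0.91) and Coro1b (r = 0.90), Csf2rb to Rassf4 (r = 0.96), Pirb (r = 0.95) and Gpr35 (r = 0.94), Csf3r to Klra2 (r = 0.96), Cd300lb (r = 0.95) and Cxcl2 (r = 0.95) and Flt3 to Tnni2 (r = 0.99), Slc46a3 (r = 0.89) and Ffar4 (r = 0.89). Csf2 and Flt3l did not reach 50 CPM in the mean of any class and were not compared.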

How the data were processed

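Non-parenchymal liver cells of 3 vehicle and 3 ginkgetin libraries were profiled on the 10x Chromium system. The deposited tables hold whole UMI counts per gene symbol and barcode, not normalized. The authors' quality control used Seurat with limits of 250 and 5000 UMIs and 5% mitochondrial UMIs. The submitters' processing notes name builds GRCm38 and mm10. Aligner and annotation are not given in the sources used here, and gene positions are from GENCODE vM21. Deposited totals ran from 13128697 to 61796882 UMIs. No other column of sample values was found (0 left unused).

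The limits were applied to genes detected per cell, which kept 27544 barcodes, since the stated UMI reading kept 16821 and removed the deepest cells. Cells were scaled to 10000, log-transformed and clustered in scanpy 1.11.5 (2000 variable genes found in both barcode sets and without the members, 30 principal components, 15 neighbours, Leiden resolution 1, seed 1; leidenalg 0.10.2, igraph 0.11.9, numpy 2.4.6, pandas 2.3.3, scipy 1.17.1, python 3.11.15). Lymphoid, mesenchymal and myeloid cells were clustered again within each barcode set, also at resolution 1. A cluster was named with at least 3 markers detected, in 25% of its cells and at 2 times the mean of the others. These naming limits, the merged T or NK cell-like and monocyte-like classes and the division by Stab2 were set after seeing the data. Scrublet called too few cells to be relied on, and no doublets were removed.

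Counts were summed per library and class, with at least 10 cells, and tested in R 4.3.3 with the quasi-likelihood test of edgeR 4.0.16, after filterByExpr and TMM scaling, in a model that held the treatment group and no other term. A gene counted as called at an adjusted p under 0.05 and a fold over 2. The fit was tested on simulated data with known changes. DESeq2 1.42.0 and limma-voom (limma 3.58.1) were among the alternatives. Shares of cells used 1000 UMIs per cell and two-sided exact permutation tests over libraries. A limit at a count of 0 is 3 counts of the total. Plots were drawn with matplotlib 3.10.9.

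Named were all members with at least 10 UMIs in a class, listed partner genes that were called and, for each member reaching 50 CPM, the 3 genes with the highest Pearson correlation of log2(CPM + 10) over class means. Ccnd1 and Stat5b were named after their values were seen. The members, partner list and tests were chosen with earlier results of these data known. Libraries with the same replicate number deviated together from their group means, with every correlation over 0.1 in the 6 classes checked, so the replicate number was used as a block in an alternative fit. Replicates 1 and 2 also correlated with each other across numbers, as their shared barcode set would give.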

Additional observations from a re-analysis of the deposited data

How the results depend on the processing

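Of 46 pairs of member and class 0 were called, and 2 were with the replicate block (Csf1 and Flt3l in endothelial-like cells), 1 with the barcode-set block (Csf1) and 1 with library-size scaling (Csf1r in macrophage-like cells). The other alternatives called 0. Of 1080 alternative values for 73 log2 fold changes (every tested member and class, and the partner genes named in the report), 974 kept their direction and side of the threshold, 64 (over 24 results) had the opposite sign, 11 became called and 31 lost a call. Where a class lacked the cells, or had no counterpart under another clustering or cell filter, that alternative gave no value. No change of sign involved a value that was called in either fit, and the cause of these changes was not tested. The 1106 genes called in macrophage-like cells became 190 with the UMI reading of the cell filter, 660 with each library clustered alone, 699 with no filter on genes, 1681 with the barcode-set block and 1736 with library-size scaling, of which 90.8% were higher in ginkgetin libraries against 52.4% in the main fit. Leaving out 1 library gave 0 to 1114: 0 without any 1 of replicates 1 and 2 of vehicle and replicate 2 of ginkgetin, 214 without ginkgetin replicate 3 and 557 without ginkgetin replicate 1. The 73 genes called in endothelial-like cells became 328 with DESeq2, 439 with the replicate block, 470 with the barcode-set block, 19 with library-size scaling, 35 with limma-voom, 22 with no filter on genes and 27 in clusters with Stab2, and 0 to 1 when a library was left out. Of the endothelial calls 38.4% were higher in ginkgetin libraries, against 16% with the UMI reading, 22.9% with limma-voom, 27.3% with no filter and 49.2% with each library clustered alone. Shares of cells did not overlap between groups for 5 of 51 pairs, for 10 after thinning to 500 UMIs and for 7 to 14 with a library left out. No such pair could pass, as an exact permutation p over 3 libraries against 3 cannot go below 0.1, and the same count over all genes was not made. Where groups do not differ, 0.1 is also the chance of no overlap for 3 libraries against 3, and 5 of 51 is near it. The chance is larger with a library left out. The replicate block changed no other call of a member. Library-size scaling and the division by Stab2 were chosen after seeing the data.

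Stellate-like, mature dendritic-like and pDC-like cells had between 33 and 172 cells per group, and differences within the SEs given were not detectable at this depth. With 3 libraries against 3, permutation tests cannot go below 0.1.

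The changes of sign, in log2 fold change of ginkgetin against vehicle, were these. Csf1 went from -0.045 in T or NK cell-like cells (0.0061 with the highest doublet scores removed, 0.029 with library-size scaling, -0.53 to 0.44 with a library left out), from 0.67 in Trem2 Gpnmb macrophage-like cells (-0.082 to 0.79 with a library left out), from 0.40 in macrophage-like cells (-0.091 to 0.87 with a library left out), from -0.051 in other endothelial-like cells (0.022 with the barcode-set block, 0.023 with limma-voom, -0.36 to 0.71 with a library left out) and from -0.087 in stellate-like cells (0.032 with the barcode-set block, 0.0049 with library-size scaling, 0.088 with the replicate block, -0.36 to 0.25 with a library left out). Csf1r went from -0.37 in mature dendritic-like cells (0.43 with the barcode-set block, 0.78 with the replicate block, -1.90 to 0.93 with a library left out). Csf2 went from 0.25 in T or NK cell-like cells (-0.047 to 0.63 with a library left out). Csf2ra went from 0.23 in Trem2 Gpnmb macrophage-like cells (-0.072 to 0.69 with a library left out), from 0.29 in cDC2-like cells (-0.13 with each library clustered alone, -0.085 to 0.76 with a library left out) and from 0.15 in monocyte-like cells (-0.24 to 0.48 with a library left out). Csf2rb went from -0.28 in B cell-like cells (-1.05 to 0.040 with a library left out), from -0.29 in Kupffer-like cells (0.12 with library-size scaling), from 0.22 in Trem2 Gpnmb macrophage-like cells (-0.19 to 0.56 with a library left out), from -0.19 in macrophage-like cells (0.28 with library-size scaling, -0.34 to 0.0056 with a library left out), from -0.056 in mature dendritic-like cells (0.083 with library-size scaling, -0.90 to 0.33 with a library left out), from 0.0067 in monocyte-like cells (-0.0011 with the barcode-set block, -0.13 with each library clustered alone, -2.4e-05 with the highest doublet scores removed, -0.012 with limma-voom, -0.10 with no filter on genes, -0.013 with the replicate block, -0.15 to 0.17 with a library left out) and from -0.32 in plasma cell-like cells (-0.29 to 0.0035 with a library left out). Csf3r went from 0.41 in Trem2 Gpnmb macrophage-like cells (-0.36 to 0.90 with a library left out), from 0.088 in endothelial-like cells (-0.64 with Stab2 clusters alone, -0.082 with each library clustered alone, -0.077 with limma-voom, -0.11 with the replicate block, -0.63 to 0.46 with a library left out) and from 0.30 in monocyte-like cells (-0.074 with the UMI reading). Flt3 went from 0.44 in cDC2-like cells (-0.057 to 0.63 with a library left out) and from 0.091 in mature dendritic-like cells (-0.076 with no filter on genes, -0.17 to 0.27 with a library left out). Flt3l went from 0.020 in B cell-like cells (-0.015 with no filter on genes, -0.040 with the replicate block, -0.25 to 0.28 with a library left out) and from 0.91 in Kupffer-like cells (-0.49 to 1.10 with a library left out).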

Other observations

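Within T or NK cell-like cells, Flt3l was at 41.3, 46.6 and 24.5 CPM (vehicle) and 48.8, 59.9 and 75 CPM (ginkgetin) in NK or ILC1-like cells and at 35, 31.2 and 30.5 CPM (vehicle) and 53.2, 39.7 and 65.8 CPM (ginkgetin) in T cell-like cells, and at 41.3, 26.9 and 33.1 CPM (vehicle) and 44.6, 60.7 and 73.5 CPM (ginkgetin) in those without a finer name, in the order of replicates 1, 2 and 3. The paralog Csf2rb2 was at 28.2, 16.7 and 39.3 CPM (vehicle) and 15.5, 25.1 and 30.6 CPM (ginkgetin) in macrophage-like cells (log2 fold change -0.66, SE 0.33, adjusted p 0.214, edgeR). Over whole libraries Csf2ra was at 40.2, 131 and 179 CPM (vehicle) and 36, 32 and 47.2 CPM (ginkgetin), Flt3 at 18.1, 11.2 and 16.1 CPM (vehicle) and 16.8, 15.5 and 24.2 CPM (ginkgetin), Il34 at 0.873, 2.1 and 1.43 CPM (vehicle) and 0.51, 1.71 and 1.59 CPM (ginkgetin) and Csf2 at 2.78, 1.6 and 1.19 CPM (vehicle) and 5.86, 1.75 and 3.23 CPM (ginkgetin). These are values with no test of their own other than the one named.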
